A study of Mus musculus with 31 samples.

Results

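The nuclear genes that encode the subunits of the mitochondrial respiratory chain and ATP synthase were followed in a mouse skin squamous cell carcinoma line, in ribosome-protected mRNA fragments (RPF) and in total RNA. Members were the protein-coding genes whose RefSeq symbols begin with Nduf followed by A, B, C, S or V and a number (complex I), Sdha to Sdhd (complex II), Uqcr (complex III), Cox4 to Cox8 (complex IV) and Atp5 (complex V). This rule, which used no measured value, gave 87 genes, 40 of them in complex I, 4 in complex II, 8 in complex III, 18 in complex IV and 17 in complex V. The RPF table held 84 of them among its 20704 genes, and the total RNA table held 85 among 24593. After a filter on low counts, 75 of the 9457 genes tested in RPF and 76 of the 11708 genes tested in total RNA were members.

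Every library came from cells that the labels give as HRasG12V:TgfbrIIfl/fl, that is, with HRas G12V and floxed TgfbrII alleles. The resource list of the study names TgfbrII as deleted in both lines. In all groups the endogenous Eif2s1 gene, which encodes the translation initiation factor eIF2α, had been ablated and replaced by a Myc-tagged transgene driven by the PGK promoter. That transgene was either wild type (S51) or the S51A form that cannot be phosphorylated at serine 51, so that S51A cells cannot start the integrated stress response. The lines were single-cell clones, of which 2 per genotype were kept and pooled in the study, and the labels do not name the clone behind a library. Cells received vehicle (DMSO) or 100 nM bortezomib, an inhibitor of the proteasome, for 4.5 h by the labels. RPF was measured in 3 S51 vehicle libraries and in 4 libraries of each other group, and total RNA in 4 libraries of each group. Clone and genotype cannot be told apart in comparisons of S51A with S51, and p-values measure only the spread between libraries, which the study calls technical in one place and biological in another.

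Respiratory complexes I to IV pass electrons from NADH and succinate to oxygen, and complexes I, III and IV pump protons across the inner mitochondrial membrane. Complex V, ATP synthase, uses that proton gradient to make ATP. Complexes I, III, IV and V each combine subunits made in the cytosol, which are described here, with subunits made inside the mitochondrion, whereas every subunit of complex II is made in the cytosol. The mitochondrially encoded subunits were not analysed here.

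RPF libraries held 1038826 to 4902237 counts and total RNA libraries held 18758668 to 22994713. One RPF library stood apart: in S51 vehicle replicate 2 the log2 values of single genes differed from the mean of the other libraries of its group with an SD of 0.59, against 0.21 to 0.41 in the other RPF libraries, and over the members this SD was 0.53 against 0.09 to 0.32. Many RPF results are therefore also given without it, and RPF values with no such mention include it. Keratinocyte markers (Krt5, Krt14, Krt17, Trp63, Itga6, Itgb4 and Cdh1) summed to 10630 to 15366 CPM (counts scaled to 1000000 per library) in total RNA. Over the groups, immune markers (Ptprc, Cd68 and Lyz2) summed to 3.27 to 7.31 CPM, fibroblast markers (Col1a1, Col1a2 and Pdgfra) to 2.69 to 6.93 CPM and endothelial markers (Pecam1 and Cdh5) to at most 0.669 CPM. Total RNA of Eif2s1 lay between 279 and 314 CPM in every library, and these counts do not separate the S51 from the S51A transgene. Its RPF under vehicle was higher in S51A, at 212 to 259 CPM, than in S51, at 81.1 to 171 CPM. That difference was 0.73 on the log2 scale (adjusted p = 0.00234, edgeR), and 0.77 for the ratio of RPF to total RNA (adjusted p = 0.0221). Under bortezomib the RPF difference, S51 against S51A, was -0.29 (adjusted p = 0.166, edgeR). Atf4, the mRNA whose translation the integrated stress response raises, rose in RPF by 1.46 on the log2 scale in S51 (adjusted p = 3.25e-09, edgeR) and stood at 0.06 in S51A (adjusted p = 0.778).

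The members took up 1.24% of the counted total RNA and 1.99% of the counted RPF in S51 vehicle cells. Complex V held the largest summed share in both readouts and complex II the smallest. Summed over its 17 genes, complex V reached 8561 ± 116 CPM of RPF (SD, n = 3, on raw library totals, as for all summed shares) in S51 vehicle, and the 4 genes of complex II reached 640 ± 33.8 (SD, n = 3). Divided by the length of coding sequence in which fragments were counted, RPF levels in S51 vehicle had medians of 1019 CPM per kb for complex V, 1005 for complex IV, 405 for complex III, 314 for complex I and 296 for complex II. Total RNA per kb of transcript followed the same order for the extremes, with medians of 272 for complex V and 69.2 for complex II. The lowest RPF level per kb belonged to Ndufv3, an accessory subunit of complex I, at 32.5. The 2 highest were Cox8a, a small subunit of complex IV, at 3610 ± 1172 CPM per kb, and Ndufa4 at 2735 ± 813 (SD, n = 3 each), which did not differ beyond this spread. Their order rested on S51 vehicle replicate 2, and in the other 3 groups Ndufa4 had the higher mean, with 4101 against 3040 CPM per kb in S51 bortezomib, 3152 against 2727 in S51A vehicle and 3794 against 3351 in S51A bortezomib. Levels per kb in total RNA rest on 1 RefSeq transcript per gene.

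Isoforms known from heart, skeletal muscle, testis and hypoxic tissue were at or near 0. The median count was 0 in both readouts for Cox4i2, Cox6a2, Cox6b2, Cox7b2, Cox8b, Cox8c and Ndufa4l2, with at most 3 counts in any library. Their counterparts were abundant, with Cox4i1 at 457, 474, 483 and 475 CPM and Cox6b1 at 225, 237, 225 and 228 CPM in total RNA of S51 vehicle. Cox7a1, the heart and muscle form of a small complex IV subunit, had a median of 6.5 counts in total RNA and was not tested in RPF. Ndufs5 was also at a median count of 0, and 76.7% of the 30-base windows of its coding sequence occur elsewhere in the mouse genome. Members with larger shares were counted, such as Uqcrb (88.3%) and Ndufa12 (88.5%), with median RPF counts of 157 and 506. The cause of the low counts of Ndufs5 was not tested. All windows of 6 tested members (Atp5g1, Atp5g2, Atp5l, Atp5md, Cox7c and Ndufb4) occur elsewhere. For these 6 a requirement of unique mapping could move reads between the gene and its copies, and their values are uncertain to that extent.

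Bortezomib was compared with vehicle in each genotype first in total RNA, the readout with the smaller spread. In S51A cells, 67 of the 76 members rose and 0 fell (edgeR quasi-likelihood test, Benjamini-Hochberg adjusted p below 0.05 over all genes tested), where 56.4% of all genes tested passed, 27.5% with a rise and 28.9% with a fall. The median of the members was 0.21 on the log2 scale, against -0.01 over all genes, and 75 of the 76 lay above 0. Vehicle and bortezomib libraries did not overlap for 66 members, all higher under bortezomib, as was so for 24.3% of all genes. The changes were small for single genes, from 0.00 to 0.56 for every member but Cox7a1, which stood at -0.74 on its few counts and did not pass. In S51 cells 26 members rose and 6 fell (29.7% and 30.2% of all genes, 59.8% together), with a median of 0.04. When libraries were scaled by their totals alone, the split turned to 8 higher and 40 lower. With that scaling 16.7% of all genes were higher and 47.6% lower.

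**Figure D1:**
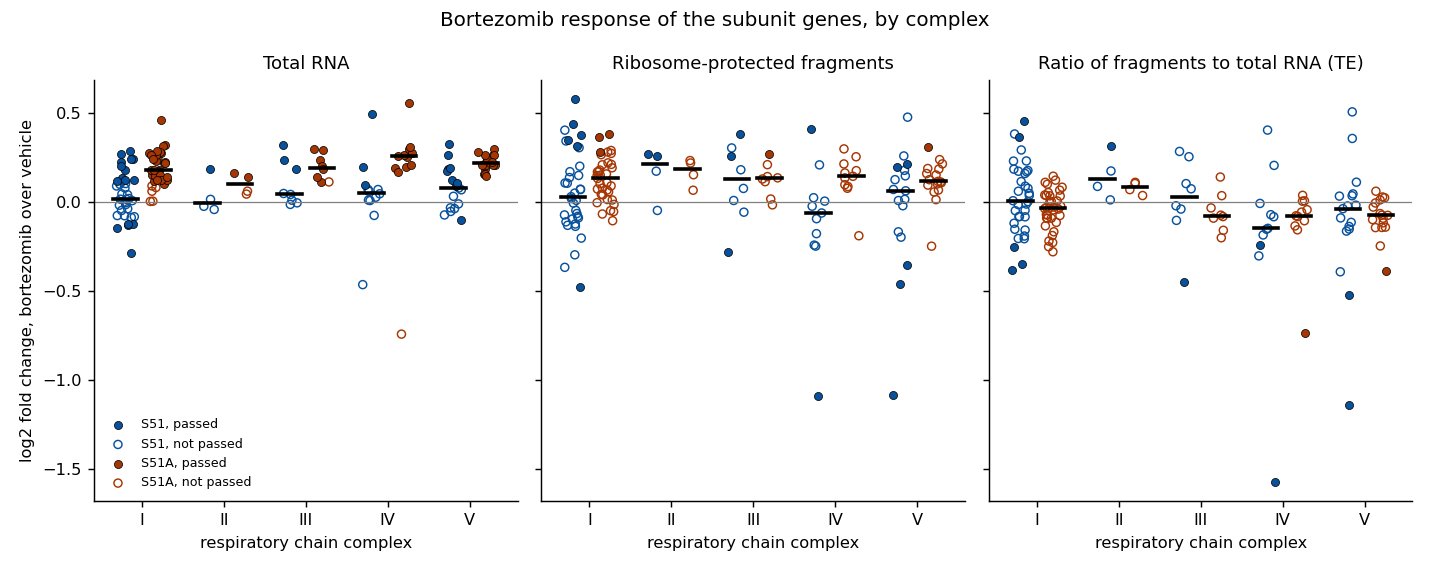
Log2 fold change of bortezomib over vehicle for each tested subunit gene, by complex on the x axis, in total RNA, RPF and their ratio (TE), with S51 in blue and S51A in brown, filled points for genes past an adjusted p of 0.05 and black bars for medians. In total RNA the S51A medians lie between 0.10 and 0.26 and the S51 medians between 0.00 and 0.08 with TMM scaling. Library totals alone turn the S51 split to 8 higher and 40 lower (16.7% and 47.6% of all genes). In RPF and TE of S51 the genes Cox7a2l and Atp5g2 lie apart near or below -1.

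In S51A the medians of all 5 complexes lay above 0, with the weakest rise in complex II. In complex V all 17 genes rose, with a median of 0.22. Among them were the catalytic core subunit Atp5b, at 1399, 1407, 1440 and 1404 CPM under vehicle and 1625, 1655, 1607 and 1631 CPM under bortezomib, and Atp5h, a subunit of the peripheral stalk, at 217, 203, 213 and 206 against 252, 272, 246 and 261 CPM. For both genes every bortezomib library lay above every vehicle library. In complex IV, 11 of 12 genes rose (median 0.26), in complex III 7 of 8 (median 0.19), and in complex I 30 of 35 (median 0.18). Complex II had the lowest median, 0.10, with 2 of 4 genes rising, Sdhc and Sdhd, by 0.17 and 0.14. Its summed share on raw library totals did not rise, at 310 ± 5.08 CPM under vehicle and 307 ± 3.03 under bortezomib (SD, n = 4 each). The sums of complexes I, III, IV and V rose without overlap. Ndufa11, a membrane arm subunit of complex I, went from 26.5, 27.4, 26.5 and 22.7 CPM to 36.4, 36.3, 34.1 and 35.1 CPM, without overlap.

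The S51 response in total RNA was lower than the S51A response for many members. The difference of the responses, S51 minus S51A, passed the test for 38 of 76 members (21.6% of all genes), with 36 lower and 2 higher, where 9.58% and 12% of all genes were lower and higher. Its median was -0.15, against 0.00 over all genes. Lower responses in S51 were found for 17 of 35 genes of complex I, 2 of 4 of complex II, 3 of 8 of complex III, 7 of 12 of complex IV and 7 of 17 of complex V. Cox7c, a small subunit of complex IV, had 63.5, 61.1, 59.9 and 60 CPM under vehicle and 58.8, 55.7, 59.7 and 57.8 CPM under bortezomib in S51. In S51A it had 60.3, 55.7, 60.3 and 54.3 CPM under vehicle and 65, 68.9, 74 and 71 CPM under bortezomib. Every bortezomib library lay just below every vehicle library in S51 (-0.08 ± 0.05, adjusted p = 0.167, edgeR) and above every one in S51A, and the responses differed by -0.35 ± 0.07 (SE, adjusted p = 0.000464, edgeR).

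Other members with the lowest S51 response relative to S51A were Ndufc1 (-0.34) and Ndufs7 (-0.29) of complex I, Uqcr10 (-0.31) of complex III and Atp5md (-0.33), Atp5mpl (-0.32) and Atp5e (-0.30) of complex V. Ndufs7, which carries an iron-sulfur cluster next to the quinone site, fell in S51 from 52.7, 53.5, 52.1 and 52.8 CPM to 44, 41.2, 43.1 and 44.7 CPM, without overlap. In S51A it had 44.6, 45.1, 45.9 and 40.9 CPM under vehicle and 47, 42.2, 43.6 and 44.1 CPM under bortezomib, which overlapped. The 2 members with a higher response in S51 were Ndufs1, the largest subunit of complex I (0.16 ± 0.05, adjusted p = 0.0319, edgeR), and Atp5a1, a core subunit of ATP synthase (0.12 ± 0.04, adjusted p = 0.0407). With library totals alone both calls ended, at 0.13 and 0.08, and the difference passed for 0 members higher and 47 lower (9.26% and 14% of all genes). Atp5a1 rose in both genotypes, from 1147, 1194, 1176 and 1186 CPM to 1422, 1484, 1509 and 1483 CPM in S51 and from 1152, 1148, 1168 and 1173 CPM to 1304, 1379, 1322 and 1361 CPM in S51A.

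These counts are relative to the other genes of a library, and in bulk samples fewer cells of a kind and less RNA per cell cannot be told apart. When libraries were scaled by their total alone instead of by TMM, the median of all genes moved by -0.15 in S51 and by -0.12 in S51A. The members in S51A then split into 36 higher and 3 lower (16.4% and 42.8% of all genes). Relative to the median of all genes, the members stood at 0.05 in S51 and 0.22 in S51A under both scalings, and their difference of responses at -0.15. A change of scaling moves all genes of a comparison by about the same amount. These relative values could therefore hardly differ between the scalings, and their agreement is no check on the scaling. Without S51 vehicle replicate 2, the difference passed for 1 member higher and 28 lower (9.93% and 7.82% of all genes), 29 of the 38 in common.

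Transcript length moved with these changes. The median transcript of a tested member was 747 nt, against 2971 nt over all genes tested. Over the 76 members, the difference of responses and transcript length had a Spearman rho of 0.60, against 0.27 over 11237 genes with a length, all from the same libraries. Among the 50 members with a transcript below 1000 nt, 29 had a lower response in S51 and 0 a higher one (median -0.19), while the 26 longer members had 7 lower and 2 higher (median -0.06). Genes outside the module with such short transcripts, 694 in number, had a median of -0.15, and the 10467 longer ones a median of 0.01. Of these short genes 26.4% had a lower response in S51, against 58% of the short members, and of the longer ones 8.46%, against 26.9% of the longer members. In the S51A response, the short members stood at a median of 0.23 and the short genes outside the module at 0.06. The part of length in these results was not tested.

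**Figure D2:**
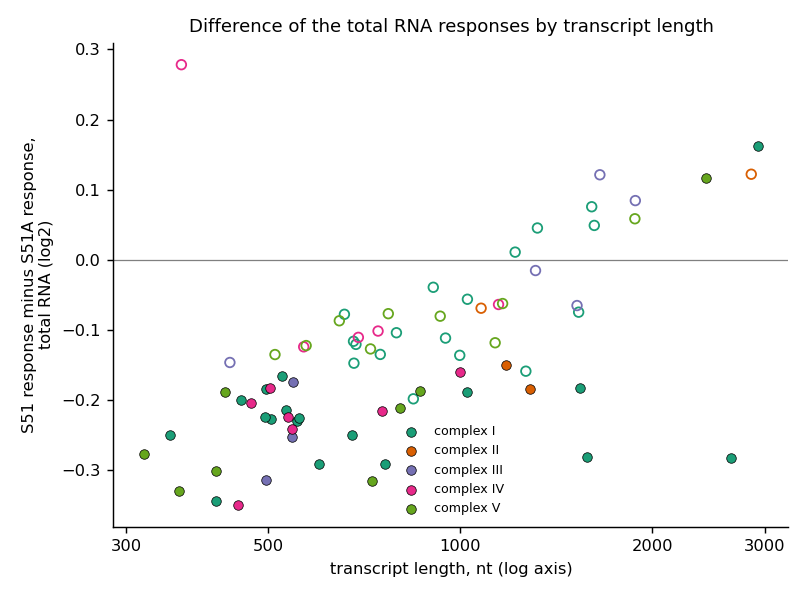
Difference of the total RNA responses (S51 minus S51A, log2) on the y axis against transcript length in nt on a log axis, 1 point per tested member, coloured by complex and filled where the adjusted p was below 0.05. Points below 1000 nt have a median of -0.19 and longer ones a median of -0.06.

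In RPF, which counts mRNA fragments held by ribosomes, 12 of 75 members rose and 6 fell in S51 (14.8% and 16% of all genes, 30.8% together), with a median of 0.02. In S51A, 5 rose and 0 fell (9.25% and 11.4% of all genes), with a median of 0.14 and 66 of 75 above 0. The 5 were Ndufb6 (0.38), Ndufa11 (0.36) and Ndufa12 (0.28) of complex I, Uqcr11 (0.27) of complex III and Atp5k (0.31) of complex V. Ndufb6, a membrane arm subunit, had 138, 117, 108 and 121 CPM under vehicle and 167, 162, 140 and 158 CPM under bortezomib in S51A, without overlap. The number in S51A depended on the library that stood apart, although that library is of the other genotype, and the cause was not tested. Without S51 vehicle replicate 2, 25 members rose and 1, Atp5g2, fell by 0.25 (14.5% and 16.1% of all genes), with the same median of 0.14. Without S51A vehicle replicate 2, 3 or 4, or S51A bortezomib replicate 2, 2 to 3 members passed. In S51 the numbers without replicate 2 were 10 and 6 (15% and 15.1% of all genes), with 12 genes in common. Without S51 bortezomib replicate 3 they were 6 and 5.

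**Figure D3:**
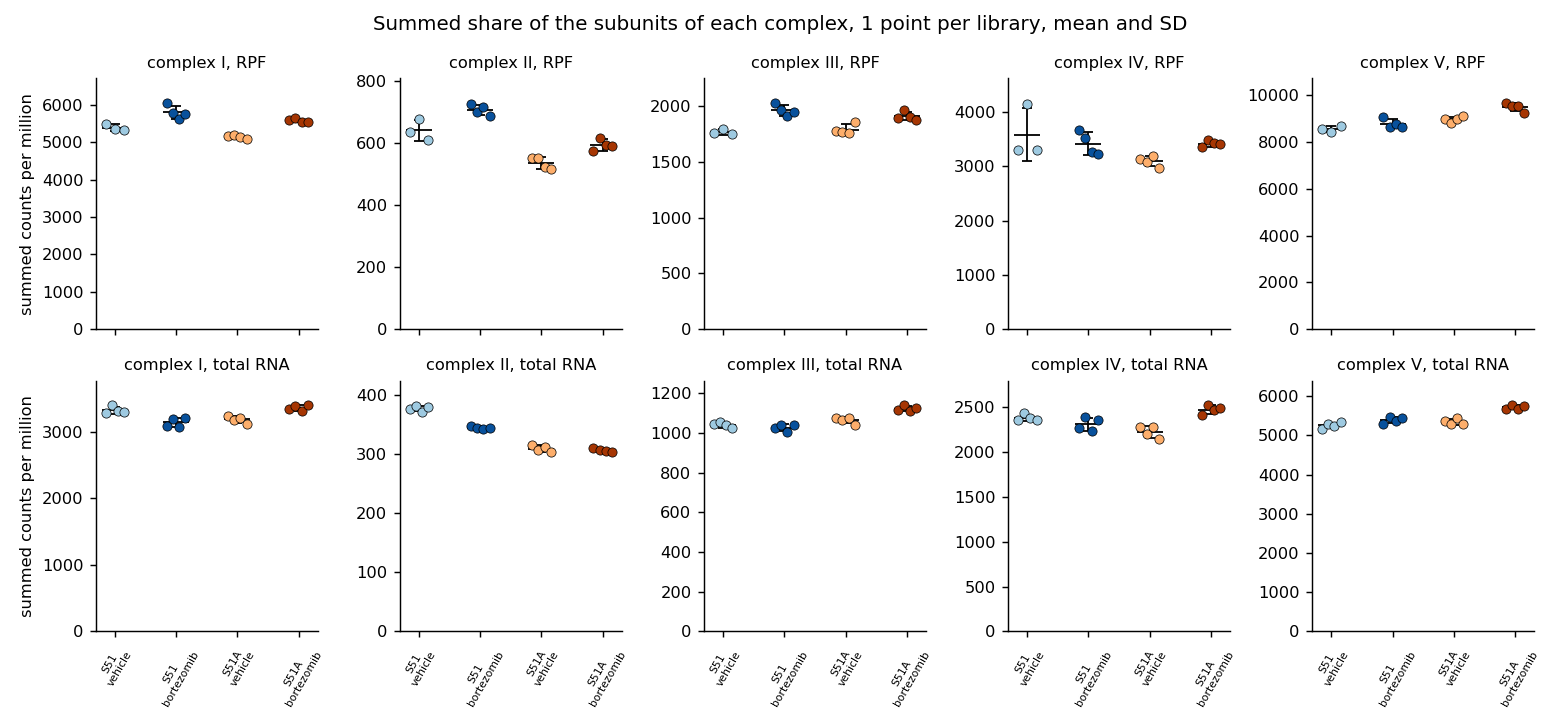
Summed CPM, on raw library totals, of the members of each complex, 1 point per library with mean and SD, for RPF in the upper row and total RNA in the lower row, by genotype and treatment on the x axis. Complex V carries the largest share in every group, and for complex IV in RPF the S51 vehicle group spreads from 3299 to 4141.

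As summed shares, the members rose from 19537 ± 91.9 to 21011 ± 246 CPM of RPF in S51A (SD, n = 4 each), without overlap, and from 12134 ± 200 to 12987 ± 151 in total RNA, also without overlap. In S51 the sums were 19934 ± 410 (n = 3) and 20680 ± 595 (n = 4) in RPF and 12378 ± 146 and 12220 ± 235 in total RNA (n = 4 each), and both pairs overlapped. The overlap in RPF came from S51 vehicle replicate 2 alone, at 20404 CPM. The other vehicle libraries held 19745 and 19653 CPM, below every bortezomib library (20274 to 21537). By complex, RPF sums of S51 were higher under bortezomib without overlap for complexes I, II and III, and overlapped for complexes IV and V. Total RNA sums of S51 were lower under bortezomib without overlap for complexes I and II, and overlapped for complexes III, IV and V. In total RNA, complex I held 3278 to 3400 CPM under vehicle and 3077 to 3216 under bortezomib, and complex II 372 to 382 and 343 to 348. Complex IV in RPF of S51 vehicle held 4141 CPM in replicate 2 and 3299 to 3303 in the other libraries. These sums carry no test.

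Among the members that changed in RPF of S51 was Ndufa4, named for complex I but known as a component of complex IV. It had 584, 341 and 626 CPM under vehicle and 768, 746, 788 and 798 CPM under bortezomib, without overlap, a rise of 0.58 ± 0.13 (adjusted p = 0.00184, edgeR) that was 0.36 without replicate 2. Sdhb, the iron-sulfur subunit of complex II, rose from 132, 144 and 134 to 161, 155, 171 and 170 CPM (0.27), without overlap. Uqcrfs1, the Rieske iron-sulfur protein of complex III, fell from 145, 153 and 145 to 120, 116, 122 and 125 CPM (by 0.28 on the log2 scale), without overlap. Uqcrc2, a core protein of the same complex, rose by 0.38, or by 0.24 without replicate 2 (adjusted p = 0.0293, edgeR). Atp5d, a subunit of the central stalk of ATP synthase, had 520, 760 and 489 CPM under vehicle and 501, 467, 413 and 461 CPM under bortezomib. Its fall of 0.36 on the log2 scale rested on replicate 2, without which the value was -0.14 (adjusted p = 0.179, edgeR).

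The difference between the RPF responses of the genotypes passed the test for 2 of 75 members (2.35% of all genes, 1.04% higher and 1.31% lower), Cox7a2l and Atp5g2, both lower in S51. Without S51 vehicle replicate 2 the same 2 members passed (5.02% of all genes). Without S51 vehicle replicate 3, 6 passed, all lower, with the share of all genes not given. Cox7a2l (chr17:83501917-83514333, minus strand, GRCm38.p6) encodes a relative of the Cox7a subunit that is known to join complexes III and IV into supercomplexes. Atp5g2 (chr15:102662868-102671047, minus strand), also named Atp5mc2, is one of 3 genes that encode the same mature c subunit, the protein of the rotating membrane ring of ATP synthase, with different targeting peptides.

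Both mRNAs are shown with their nearest relatives by the 30 bases around the annotated start of transcription, 10 before it and 20 from it on, since the first bases of an mRNA are where pyrimidine-rich starts of highly translated mRNAs are described. The sequences are from RefSeq (GRCm38.p6, all on the minus strand, 5′ to 3′), and capitals mark the longest run of C and T that begins within 10 bases of the start.
Atp5g1, chr11:96075612-96075641: ggCTaaagctgggaggtgagtcagtcacct
Atp5g2, chr15:102671028-102671057: gcgcccccgCCCCTCTCTgtcttctctgcc
Atp5g3, chr2:73911307-73911336: cggcgcggataagagCCgcaccgcgcttgc
Cox7a2, chr9:79759834-79759863: TCCggaggctagacgggccgctgcgagaag
Cox7a2l, chr17:83514314-83514343: ggggaagccgggTCCTTTTCTagggcggtc

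Atp5g2 had a run of 9 and Cox7a2l a run of 9 pyrimidines, against 2 or 3 in the other 3 genes. A run of 8 or more of this kind was present in 9 of 64 tested members with a promoter entry (14.1%) and in 1052 of 9418 tested genes (11.2%). The 9 members were Atp5e, Atp5g2, Atp5j, Cox7a2l, Cox7c, Ndufa5, Ndufb5, Uqcrc1 and Uqcrfs1. This feature was looked for after the values of Cox7a2l and Atp5g2 were seen, and annotated starts can differ from the starts used in these cells. In the 300 bases around the start, on either strand, the NRF1 motif GCATGCGC was present in 15.6% of members and 6.25% of genes, the YY1 motif AAGATGGCG in 10.9% and 3.78%, and the ETS motif CCGGAAGT in 7.81% and 9.73%. These motifs are known from promoters of respiratory chain genes, and their presence here is a description of letters only.

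In RPF, Cox7a2l had 78.5, 71.9 and 73.3 CPM in S51 vehicle and 35.6, 31.5, 33.2 and 39.1 CPM in S51 bortezomib. In S51A it had 61.1, 63.6, 50.5 and 54.2 CPM under vehicle and 49.8, 55.9, 48.3 and 47.9 CPM under bortezomib, which overlapped. The S51 groups were far apart, with a fall of 1.09 ± 0.12 on the log2 scale (SE, adjusted p = 7e-07, edgeR), while S51A stood at -0.19 ± 0.11 (adjusted p = 0.226). The difference of the responses was -0.90 ± 0.16 (adjusted p = 0.0031, edgeR). Single libraries held 33 to 302 fragments of this gene, and 58.9% of its coding windows of 30 bases occur elsewhere in the genome.

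Total RNA of Cox7a2l moved the other way. It rose in S51 from 159, 159, 155 and 148 to 218, 229, 206 and 221 CPM, and in S51A from 113, 108, 112 and 113 to 157, 164, 164 and 170 CPM. No group overlapped with its vehicle control, and the rises of 0.49 ± 0.04 and 0.56 ± 0.04 were the highest of complex IV in both genotypes. Their difference was -0.06 ± 0.05 (adjusted p = 0.418, edgeR).

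Atp5g2 had 579, 784 and 576 RPF CPM in S51 vehicle and 339, 306, 277 and 295 CPM in S51 bortezomib. In S51A it had 454, 499, 517 and 465 CPM under vehicle and 391, 421, 437 and 381 CPM under bortezomib. Neither pair overlapped, but the fall in S51 was 1.09 ± 0.10 on the log2 scale (adjusted p = 6.09e-08, edgeR) and the value in S51A was -0.25 ± 0.10 (adjusted p = 0.0704), with a difference of -0.84 ± 0.14 (adjusted p = 0.00149). Without S51 vehicle replicate 2, whose 784 CPM was the highest value, the S51 fall was 0.93 and the difference -0.68 on the log2 scale (adjusted p = 1.36e-05). Total RNA of Atp5g2 was 190, 187, 180 and 188 CPM in S51 vehicle and 194, 208, 185 and 194 CPM in S51 bortezomib, which overlapped. All coding windows of Atp5g2 occur elsewhere in the genome.

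The other c subunit genes did not follow Atp5g2 in RPF of S51. Atp5g3 had 625, 394 and 691 CPM under vehicle and 668, 563, 691 and 662 CPM under bortezomib (0.18 ± 0.13, adjusted p = 0.319, edgeR). None of its coding windows occur elsewhere. Atp5g1 had 398, 654 and 408 CPM under vehicle and 378, 367, 321 and 347 CPM under bortezomib, a fall of 0.46 on the log2 scale that was -0.20 (adjusted p = 0.0678, edgeR) without replicate 2. Cox7a2, the constitutive relative of Cox7a2l, had 196, 186 and 197 CPM under vehicle and 195, 193, 200 and 197 CPM under bortezomib, which overlapped closely.

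**Figure D4:**
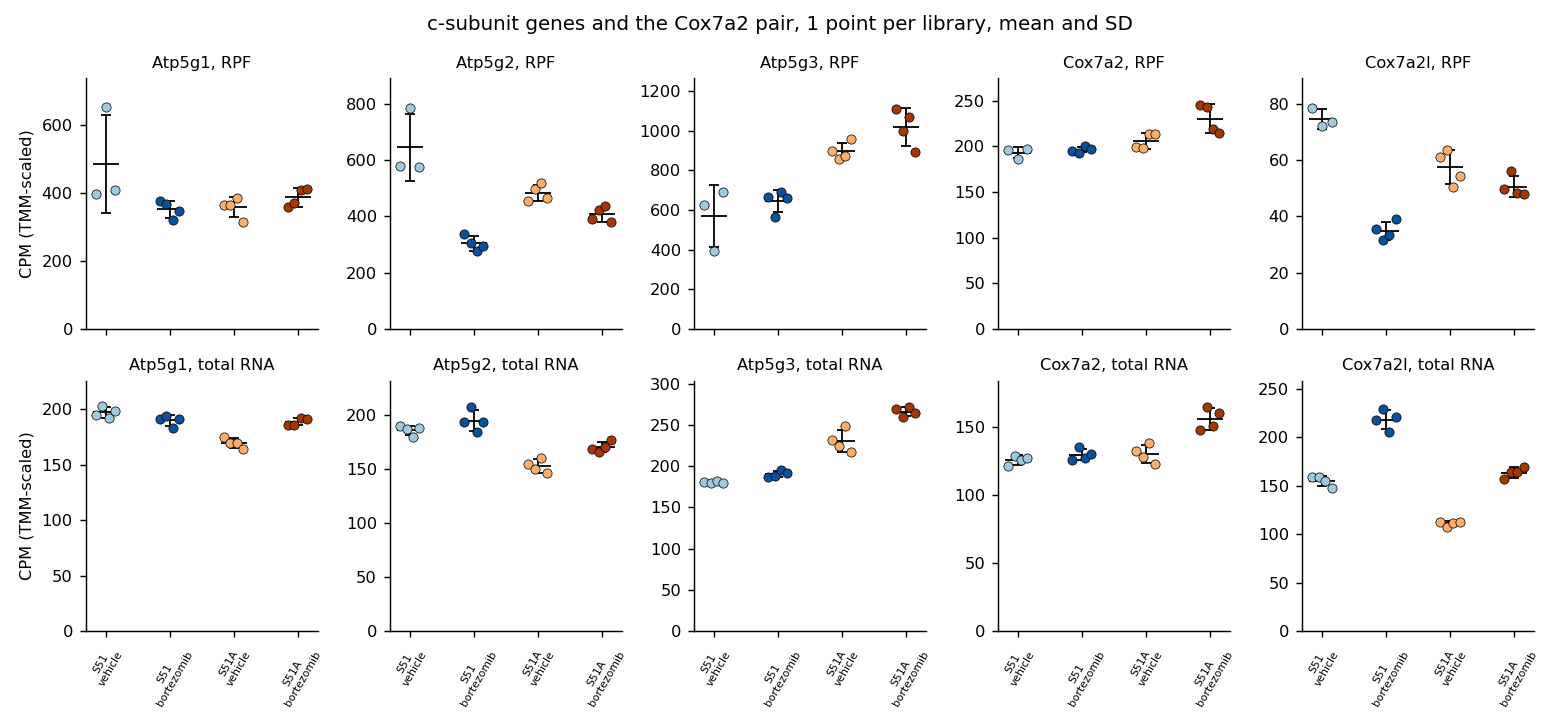
CPM of the 3 c subunit genes, Cox7a2 and Cox7a2l in RPF (upper row) and total RNA (lower row), 1 point per library with mean and SD, by genotype and treatment on the x axis, each y axis starting at 0. Under bortezomib in S51, RPF of Atp5g2 lies between 277 and 339 and that of Cox7a2l between 31.5 and 39.1, below all other groups, while total RNA of Cox7a2l is highest there.

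The ratio of RPF to total RNA, here called translational efficiency (TE), was tested in 1 model over both kinds of library. In S51, 3 of 75 members had a higher TE under bortezomib and 8 a lower one (2.7% and 6.73% of all genes, 9.42% together). With library totals alone, which moved the median of all genes by 0.14, 14 members were higher and 5 lower (12.1% and 4.22% of all genes). Per lysate, the ratio of the CPM values for Cox7a2l was 0.494, 0.453 and 0.472 in S51 vehicle and 0.163, 0.138, 0.161 and 0.177 in S51 bortezomib. In S51A it was 0.542, 0.587, 0.452 and 0.482 under vehicle and 0.317, 0.34, 0.294 and 0.281 under bortezomib, so neither genotype overlapped. The TE of Cox7a2l fell by 1.57 ± 0.11 on the log2 scale in S51 (adjusted p = 1.05e-13, edgeR) and by 0.74 ± 0.09 in S51A (adjusted p = 7.59e-07). For Atp5g2 it fell by 1.14 ± 0.11 in S51 (adjusted p = 3.42e-10) and by 0.39 ± 0.10 in S51A (adjusted p = 0.0447).

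These were the only 2 members past the threshold in S51A (1.24% of all genes) and the only 2 whose TE responses differed between genotypes (1.74% of all genes). The differences were -0.84 ± 0.15 for Cox7a2l (adjusted p = 0.00104, edgeR) and -0.75 ± 0.15 for Atp5g2 (adjusted p = 0.00332). The S51A call of Atp5g2 held in 9 of 25 settings and that of Cox7a2l in 25 of 25, and both differences held in all 25. With the block for each lysate, Cox7a2l alone passed in S51A (-0.73), and the differences were -0.81 and -0.74.

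**Figure D5:**
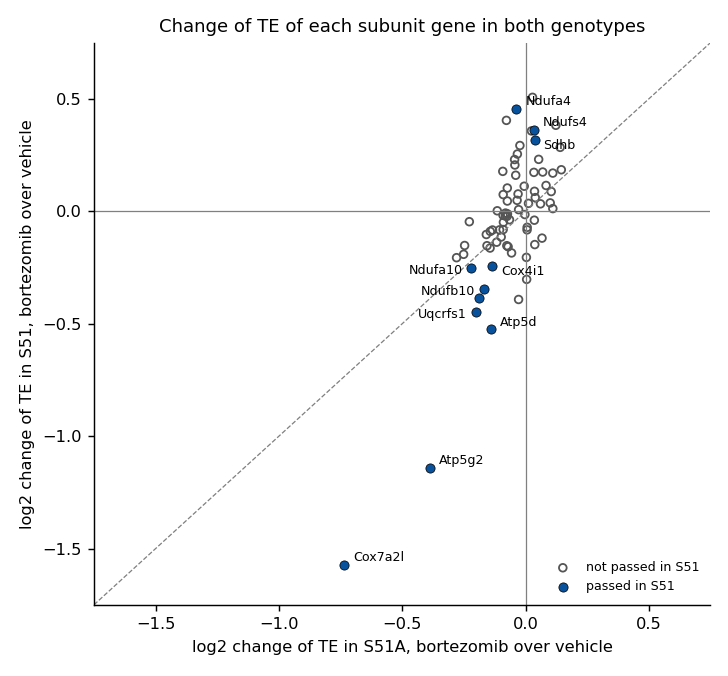
Log2 change of TE under bortezomib in S51 (y axis) against that in S51A (x axis), 1 point per tested member, filled where the S51 change passed, with the members given in the text named and a dashed line for equal change. Cox7a2l and Atp5g2 lie far below 0 in S51, at -1.57 and -1.14, and below the dashed line.

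Smaller falls of TE in S51 included those of Atp5d (by 0.52), Uqcrfs1 (by 0.45), Ndufb10 (by 0.35), Ndufa10 (by 0.25) and Cox4i1 (by 0.24), all on the log2 scale. For Uqcrfs1 the ratio was 2.31 ± 0.01 in S51 vehicle (SD, n = 3) and 1.64 ± 0.08 in S51 bortezomib (SD, n = 4), without overlap, and total RNA of this gene rose by 0.19 while RPF fell. The rises were those of Ndufa4 (0.46), Ndufs4 (0.36) and Sdhb (0.32). With a block for each lysate, from which both RPF and total RNA came, 1 member was higher and 5 lower, and the calls of Cox4i1, Ndufa10, Ndufb10, Ndufs4 and Sdhb were lost, while those of Atp5d (-0.49), Uqcrfs1 (-0.48) and Ndufa4 (0.50) held. When S51 vehicle replicate 2 was left out, 8 of the 11 members passed again, with Atp5d at -0.30 and Ndufa4 at 0.24, the calls of Cox4i1, Ndufb10 and Ndufs4 were lost, and Ndufa6 (-0.44), Atp5c1 (-0.30) and Uqcr11 (0.32) were gained. Without the lysate of S51 bortezomib replicate 3 or 4, 5 and 7 members passed. None of the smaller differences between genotypes passed for these genes, for example -0.25 ± 0.11 for Uqcrfs1 (adjusted p = 0.36, edgeR). The members with a pyrimidine run at the start included Cox7a2l, Atp5g2 and Uqcrfs1, and the others ranged from -0.19 for Ndufb5 to 0.51 for Atp5j, which did not pass.

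Without bortezomib, S51A and S51 cells differed at several members. In RPF 5 of 75 were higher and 12 lower in S51A (14.8% and 13.8% of all genes), and in total RNA 13 of 76 were higher and 30 lower (31.4% and 32.4% of all genes). Without S51 vehicle replicate 2 the RPF numbers were 4 and 10 (15.2% and 13.5% of all genes), and without S51A vehicle replicate 4 they were 4 and 7. Sdhd, one of the membrane anchors of complex II, had 196, 220 and 178 RPF CPM in S51 vehicle and 115, 114, 113 and 103 CPM in S51A vehicle (-0.83 ± 0.09, adjusted p = 1.07e-06, edgeR). Its total RNA was 131, 131, 130 and 133 CPM in S51 and 84.3, 80.6, 83.3 and 81 CPM in S51A (-0.68 ± 0.03). Cox5a, a subunit of complex IV, was also lower in S51A, at -0.41 in RPF and -0.55 in total RNA, the latter from 149, 157, 160 and 159 against 109, 107, 107 and 105 CPM.

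Atp5g3 was the member with the highest RPF difference in the other direction, at 625, 394 and 691 CPM in S51 and 896, 856, 873 and 959 CPM in S51A (0.65 ± 0.13), or 0.44 without replicate 2. Its total RNA was also higher in S51A (0.35), and that of Ndufb5 was lower, with 69, 78.2, 75.8 and 77.2 CPM in S51 and 51.3, 49.1, 52.5 and 48.7 CPM in S51A (-0.58). In TE, 0 of 75 members passed in this comparison by edgeR (0.117% of all genes) and 0 by DESeq2, with 14 at an unadjusted p below 0.05. Without the lysate of S51 vehicle replicate 3, 11 passed, 8 higher and 3 lower, a number given without the share of all genes in that setting. Under bortezomib, 3 members were higher and 14 lower in RPF of S51 than of S51A (14.9% and 16.6% of all genes), and 14 higher and 34 lower in total RNA (32.4% and 33.3% of all genes). Without S51 vehicle replicate 2 the RPF numbers were 5 and 21 (19.1% and 20.7% of all genes), and without S51 bortezomib replicate 3 they were 2 and 9.

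Most of these changes were small against the fold the study used, 1.5 in RPF and TE and 2 in total RNA. The study called genes by fold and adjusted p in RPF and then by fold alone in TE. Its fold of 2 comes from a figure legend that marks total RNA changes. Each count below takes 1 readout alone and asks for its adjusted p and this fold. In RPF, Cox7a2l and Atp5g2 were the only 2 members past it in S51 (18.6% of all genes) and in the difference of responses (1.86%), and 0 were past it in S51A (10.9%). In TE the same 2 members were past it in S51 (5.16%), in the difference of responses (1.29%) and under bortezomib between genotypes (2.98%), Cox7a2l alone in S51A (0.944%), and 0 under vehicle (0.0849%). In total RNA, 0 members were past it in S51 (4.99%), in S51A (4.18%), in their difference (0.478%) or under bortezomib between genotypes (8.28%), and under vehicle only Cox7a1 with its few counts was (7.87%). Between genotypes in RPF, Sdhd, Atp5g3 and Atp5j were past it under vehicle (15.8%) and Atp5g3 under bortezomib (17.7%). Atp5g3 (0.44) and Atp5j (0.30) fell short of the fold under vehicle without S51 vehicle replicate 2, and Sdhd (-0.75) did not.

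Other genes tied to the respiratory chain showed their own counts. Of 44 tested assembly factors, which build the complexes without staying in them, 2 rose and 18 fell in total RNA of S51 (29.7% and 30.2% of all genes), and 7 rose and 11 fell in S51A (27.5% and 28.9%). With library totals alone the numbers were 0 and 35 in S51 (16.7% and 47.6% of all genes) and 3 and 19 in S51A (16.4% and 42.8%). In RPF, 0 of 43 rose and 10 fell in S51 (14.8% and 16% of all genes), or 0 and 8 without S51 vehicle replicate 2, among them Bcs1l, which inserts the Rieske protein into complex III (-0.79 ± 0.21, adjusted p = 0.00717, edgeR). Of 17 enzymes of the tricarboxylic acid cycle, which supply the chain with electrons, 15 rose in total RNA of S51 and 12 in S51A, with 0 lower in either, but with library totals alone 5 rose and 2 fell in each genotype. Of 15 tested regulators of respiratory chain genes, the RPF responses differed between genotypes for Esrra alone, a nuclear receptor that activates such genes, at -1.42 ± 0.32 (adjusted p = 0.0173, edgeR; 2.35% of all genes passed). Its value was -1.05 without S51 vehicle replicate 2, where 3 of the 15 passed, 2 higher and 1 lower.

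Ndufab1, Cyc1 and Cycs are subunits and carriers whose names fall outside the rule. Of these, 1 rose in total RNA of S51 and 2 in S51A (29.7% and 27.5% of all genes). With library totals alone the numbers were 0 and 1 (16.7% and 16.4% of all genes). In RPF, 0 passed in either genotype (30.8% and 20.6% of all genes). Without S51 vehicle replicate 2, 0 passed in S51 and 1 in S51A (30.1% and 30.6% of all genes). Atpif1, the inhibitor of ATP synthase, stood at 0.46 in RPF of S51 (adjusted p = 0.0241, edgeR), a call that rested on replicate 2, without which the value was 0.24 (adjusted p = 0.0692).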

How the data were processed

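Ribosome-protected fragments and total RNA of the same cultures were counted per gene by the authors, who deposited raw read counts in 2 tables. Per the labels and methods, cells were lysed with cycloheximide, lysates were digested with RNase I, rRNA was depleted, and reads were aligned with Bowtie2 to mm10. The tools named with the files also include featureCounts and DESeq2, without versions. Fragments of 20 to 23 or 26 to 32 nt were counted in coding sequence without its first 15 and last 5 codons, which leaves out a larger part of short coding sequences. Headers name removal of rRNA, duplicate marking, a repeat mask and unique alignments. Headers also name a merge with resequenced reads for total RNA. The titles of S51 bortezomib and S51A vehicle samples were exchanged by the submitters after release, while the data stayed with each sample. The numbers in the headers follow the earlier titles, so 8 of 15 RPF and 8 of 16 total RNA columns carry another number than the present title. Each column went to the sample that held its number before the exchange, with the group of the present title, which is also the group the count table of the study gives it.

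From these counts, genes were filtered with filterByExpr (minimum count 10, minimum total 15), scaled by TMM and tested with the quasi-likelihood test of edgeR 4.0.16 (R 4.3.3) on all groups of a readout, so that they share 1 estimate of the spread. The RPF fit used 15 libraries and the total RNA fit 16. The TE model took both kinds of library with an interaction of readout and group. P-values were adjusted over all genes tested, and the threshold was 0.05. CPM values are TMM-scaled, summed shares use raw totals, and errors of log2 values are standard errors. Levels per kb used RefSeq models of GRCm38.p6. Counting error of single values comes from the counts given, and duplicate reads without molecular identifiers are not independent.

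No replicate pair of a group agreed within sampling noise (chi-square per gene of at least 1.66 in RPF and 2.78 in total RNA). The statistics were tested on simulated data. Named members were the highest and lowest of each complex in each readout and genotype, those with a difference of responses, the 5 with the largest absolute difference under vehicle in RPF and in total RNA, isoform sets, Sdha to Sdhd and Atpif1, and those past the threshold in TE or RPF were added after their values were seen. The members and gene lists were chosen with earlier results of these data known. Alternatives were other scalings and filters, DESeq2 1.42.0, the fold thresholds of the study (1.5 for RPF and TE, 2 for total RNA), blocks by replicate number or lysate, and leaving out each library. For left-out libraries other than S51 vehicle replicate 2, numbers of members are given without the share of all genes and cannot be set against it. 1 result is not reported here.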

Additional observations from a re-analysis of the deposited data

Results flagged for a closer look

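The responses of the genotypes to bortezomib differed by a test of the difference itself for 12 members among those listed here, each given as the S51 response minus the S51A response on the log2 scale (edgeR, adjusted p below 0.05). In RPF they were Cox7a2l (-0.90) and Atp5g2 (-0.84), and in TE the same genes, Cox7a2l (-0.84) and Atp5g2 (-0.75). In total RNA the 10 largest were Cox7c (-0.35), Ndufc1 (-0.34), Atp5md (-0.33), Atp5mpl (-0.32), Uqcr10 (-0.31), Atp5e (-0.30), Ndufs7 (-0.29), Ndufa2 (-0.29), Ndufa11 (-0.28) and Ndufv3 (-0.28). All 10 were lower in S51.

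One library lay apart in a summed share. The summed CPM of complex III in RPF of S51A vehicle were 1775, 1765, 1762 and 1863, and the gap of the highest exceeded Dixon's limit for 4 values. Of 77 groups of 4 libraries looked at, this was 1, and chance alone gives about 1 in 20.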

How the results depend on the processing

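Of 3436 repeats of the calls of single members under the alternatives, 3061 kept their direction and side of the threshold, 373 fell short of it and 2 turned. The 2 were Cox5a (-0.06) and Ndufa4 (-0.02) in total RNA of S51 with library sizes alone, which move the median of all genes. With the fold thresholds of the study, which need larger changes by construction, the members past them were 2 in RPF of S51, 0 in RPF of S51A, 3 and 1 in RPF between genotypes under vehicle and bortezomib, 0 in total RNA of either genotype, their difference and between genotypes under bortezomib, 1 under vehicle, and 2 and 1 in TE of S51 and S51A. Library sizes alone gave 39 in total RNA of S51A, 19 in TE of S51, 1 in TE of S51A and 8 in TE between genotypes under bortezomib. DESeq2 gave 8 in RPF of S51A. Without a filter, 4 members passed in the RPF difference and 1 in TE of S51A, and DESeq2's scaling (RLE) also gave 1 there. A block for each lysate gave 6 in TE of S51 and 1 in S51A, with deviations of RPF and total RNA of a lysate correlated at -0.056 to 0.346 (8 of 15 over 0.1). Leaving out single libraries gave 11 to 23 in RPF of S51, 2 to 26 in S51A, 2 to 6 in their difference, 11 to 25 under vehicle and 11 to 26 under bortezomib. In total RNA it gave 27 to 33 in S51, 65 to 68 in S51A, 29 to 38 in the difference, 40 to 47 under vehicle and 47 to 49 under bortezomib. In TE it gave 5 to 15, 1 to 2, 2 to 3, 0 to 11 and 2 to 4. Except for the effect of the fold thresholds, the cause was not tested. Whether replicate numbers pair the samples was not decided. Deviations of same-numbered libraries correlated at -0.16 to 0.20 in RPF (2 of 14 pairs over 0.1) and 0.01 to 0.19 in total RNA (7 of 16). Low values cannot show that samples were unpaired, since RPF and total RNA of 1 lysate correlated at no more than 0.346. A replicate block gave 18 members in RPF of S51, 6 in S51A, 34 and 68 in total RNA, 46 in the total RNA difference and 11 in TE of S51, and kept 151 of 155 calls. RPF depth limits the precision, with 33 fragments of Cox7a2l in the shallowest case.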
